A study of Mus musculus with 6 samples.

Results

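The nuclear genes named for mitochondrial complex I were followed in RNA of undifferentiated spermatogonia (A_undiff). Members were all gene names in the 6 count tables that begin with Nduf, without pseudogene and opposite-strand names. The rule kept 45 of 53657 names and left out 1, the pseudogene *Ndufab1-ps*. Each of the 6 libraries came from 1 adult mouse, and there were 3 WT and 3 MUT mice. All carried *Gfra1-creERT2*, a tamoxifen-activated Cre recombinase under the *Gfra1* promoter, together with a tdTomato reporter at *Rosa26* that Cre switches on. MUT mice also carried the FR-*Hras* G12V allele at the endogenous *Hras* locus, where Cre exchanges a wild-type copy for the mutated copy, so that recombined cells are heterozygous. WT mice were littermates without that allele, and they received tamoxifen as well. Cells that were tdTomato+ and brightest for the surface protein MCAM were sorted 3 months after tamoxifen. The strain background was a mixture of C57BL/6J, 129/Sv and Swiss Black. The model is mosaic, gene counts do not separate the *Hras* alleles, and the recombined share of the sorted MUT cells was not analysed here.

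Complex I, NADH:ubiquinone oxidoreductase, is the largest enzyme of the respiratory chain. It takes electrons from NADH at a flavin in its matrix arm, passes them along iron-sulfur clusters to ubiquinone, and pumps protons through its membrane arm. Its subunits are encoded partly by mitochondrial DNA and mostly by nuclear genes, so both genomes must be expressed together, and assembly factors that are not part of the finished enzyme put the pieces in place. Spermatogonial stem cells are described as relying more on glycolysis than the differentiating germ cells that follow them.

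The members were divided by known role into 3 core subunits at the flavin end, 4 core subunits at the quinone end, 10 accessory subunits of the matrix arm, 19 accessory subunits of the membrane arm and 7 assembly factors (*Ndufaf1* to *Ndufaf7*). The other 2, *Ndufa4* and its paralog *Ndufa4l2*, carry a complex I name, but *Ndufa4* is now assigned to complex IV. The genes lie on 16 chromosomes with at most 6 on any of them, and *Ndufa1* and *Ndufb11* are X-linked.

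What these scattered genes share near their start sites was examined in RefSeq promoter sequences (GRCm38.p6, 250 bases before to 50 bases after each start), which were matched for 39 of the 45 members. The sequence AAGATGGC, the core of the YY1 motif, was searched on both strands and occurred in 7 of the 39 members (17.9%), against 3.79% of the promoters of 15526 genes. All 7 members carried it on the gene strand after the start site, at positions 23 to 39. Among the 15526 genes, 252 (1.62%) carried it on the gene strand anywhere after the start site, and 116 (0.747%) at positions 23 to 39. That range was set from the matches of the 7 members, so all 7 lie in it by construction. The ATG inside the motif was an annotated start codon in 7 of these 7 members and in 161 of those 252 genes (63.9%). The 7 stretches are shown because they hold this shared element. Capitals mark the motif, each sequence reads 5′ to 3′ on the gene strand, and the set was chosen after the matches were seen.
*Ndufc1*, chr3:51408915-51408944, minus strand: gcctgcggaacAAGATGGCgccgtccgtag
*Ndufa9*, chr6:126849097-126849126, minus strand: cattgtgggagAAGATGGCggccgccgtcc
*Ndufa3*, chr7:3617384-3617413, plus strand: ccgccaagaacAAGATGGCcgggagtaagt
*Ndufs7*, chr10:80249462-80249491, plus strand: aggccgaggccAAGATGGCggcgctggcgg
*Ndufs6*, chr13:73328433-73328460, minus strand: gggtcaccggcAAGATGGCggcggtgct
*Ndufs4*, chr13:114388045-114388070, minus strand: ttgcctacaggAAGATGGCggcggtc
*Ndufb8*, chr19:44555393-44555415, minus strand: cggagaaggtgAAGATGGCtgcc

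Other motifs were found at shares both above and below those of all promoters. GCGCATGC, a core of the motif of NRF1, a transcription factor of nuclear genes for mitochondrial proteins, was present on either strand in 5 of 39 members (12.8%) against 4.26% of all promoters. These were *Ndufa6*, *Ndufa8*, *Ndufa11*, *Ndufaf4* and *Ndufaf5*. CCGGAAG, an ETS motif read by GABPA among others, was present in 5 of 39 (12.8%) against 13.4%. CCAAT was present in 13 (33.3%) against 42.0%, and TATAAA in 4 (10.3%) against 14.2%. The NRF1 letters can match both strands at overlapping positions, and a gene was then counted once. At least 1 of the YY1, NRF1 and ETS motifs was present in 17 members (43.6%) against 19.5% of all promoters. A match describes letters only, since no binding was measured.

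Promoters of 2 members are shown from 70 bases before to 30 bases after the start. *Ndufs8* was among the members with the most RNA per length, and *Ndufab1* is the member whose MUT values all lay below its WT values. Capitals mark CCAAT and the ETS motif on the opposite strand in *Ndufs8*, and none of the 5 motifs was in the *Ndufab1* stretch.
*Ndufs8*, chr19:3912745-3912844, minus strand: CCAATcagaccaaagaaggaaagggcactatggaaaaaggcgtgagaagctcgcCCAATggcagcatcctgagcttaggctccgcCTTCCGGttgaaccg
*Ndufab1*, chr7:122101819-122101918, minus strand: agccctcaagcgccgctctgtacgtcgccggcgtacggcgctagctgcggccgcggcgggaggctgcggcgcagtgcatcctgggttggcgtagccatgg

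The libraries held between 22729292 and 23550433 counted fragments, and the floor of 3 counts lay at 0.127 to 0.132 CPM (counts scaled to library size with TMM factors). No member had a count of 0 in any library. Members took between 0.234% and 0.292% of all counts. WT replicate 3 stood apart from the other WT libraries, with a chi-square per degree of freedom of 24.5 against WT replicate 1 and 18.2 against WT replicate 2, whereas the other pairs within a group gave 4.26 to 9.99. The members' fold changes and spread are given with and without this library further on. Markers of undifferentiated spermatogonia were present in every library, *Gfra1* at 104 to 147.5 CPM and *Zbtb16* at 303 to 469 CPM. Markers of other cells were not at 0. The 6 spermatid markers summed to 1263, 948.5 and 1606 CPM in WT and 650, 684 and 1253 CPM in MUT, and MUT was lower in each same-numbered pair. With the replicate number as a block, edgeR called *Tnp1* (adjusted p = 0.079) and DESeq2 called *Tnp1*, *Prm1*, *Tnp2* and *Odf1* (adjusted p between 0.00026 and 0.018) lower in MUT. The blocked DESeq2 fit did not call *Prm2* (adjusted p = 0.79) or *Acrv1*. Without the block, neither edgeR (adjusted p = 0.998 for each) nor DESeq2 called any spermatid marker. The 6 macrophage markers summed to 584, 551 and 811.5 CPM in WT and 462, 525.5 and 601 CPM in MUT, again lower in each pair. Of the Leydig markers, the sum was 13.2, 20.6 and 21.1 CPM in WT and 12.9, 13.5 and 67.3 CPM in MUT, with MUT replicate 3 apart. Their part in the members' values was not tested. In sorted cells sequenced in bulk, fewer cells of a type and less RNA per cell cannot be told apart.

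The comparison of MUT with WT asked whether induction of *Hras* G12V was accompanied by a change of complex I transcripts. It was not detected. Summed over the 45 members, WT libraries had 2370, 2532 and 2806 CPM and MUT libraries had 2662, 2581 and 2450 CPM. The means were 2569 ± 220.5 CPM in WT and 2565 ± 107 CPM in MUT (SD over 3 mice in each), and the MUT values lay inside the WT range. Of the members 23 had a log2 fold change (MUT against WT) above 0 and 22 below 0 (48.9%), where 48.2% of the 19656 tested genes lay below 0. The median log2 fold change was 0.0013 over the members and 0.0066 over all tested genes. Without *Ndufa4* and *Ndufa4l2* the members' median was 0.011. The 6 markers of differentiating spermatogonia summed to 628, 701 and 677 CPM in WT and 744, 878 and 721 CPM in MUT. In this sum every MUT library lay above every WT library. With the 6 genes weighted equally, as the mean deviation from each gene's mean log2 CPM, the groups overlapped. MUT replicate 3 (−0.013) then lay below WT replicate 2 (−0.005). The part of these markers in the members' values was not tested.

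All 45 members passed the filter on low counts, and 0 of them had an adjusted p under 0.1 in the quasi-likelihood test of edgeR (Benjamini-Hochberg adjustment over all tested genes), where 2 of 19656 genes (0.0102%) did. The smallest adjusted p among members was 0.998. No member reached an unadjusted p under 0.05 in either direction, compared with 1.34% of tested genes higher in MUT and 1.44% lower. DESeq2 and limma voom also called 0 members at an FDR of 0.1. When the replicate number entered as a block, edgeR called 13 genes and DESeq2 called 55 over the whole table, and 0 members in both. All MUT values lay above all WT values for 1 member, *Ndufs1*, against 4.69% of tested genes, and below for 1 member, *Ndufab1*, against 3% of tested genes.

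The data set narrow limits for most members. The 95% interval of the fold change lay within 1.5-fold in both directions for 41 of the 45 members (91.1%), against 59.1% of tested genes. Without WT replicate 3 it was 39 members, against 56.7% of tested genes. With the replicate number as a block it was 43 members in edgeR, against 63.4% of tested genes. In DESeq2 with the block it was 42 members, against 28.8% of the 37285 genes in that fit. The exceptions in the main fit were *Ndufa4l2*, *Ndufs5*, *Ndufaf3* and *Ndufb4*, whose intervals reached past that size. Within 2-fold lay the intervals of 44 members, all but *Ndufa4l2*. On the log2 scale the interval reached between 0.139 and 0.949 to either side of the estimate, with a median of 0.215. Of the members 41 had a mean above 10 CPM, compared with 10583 of the tested genes.

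**Figure D1:**
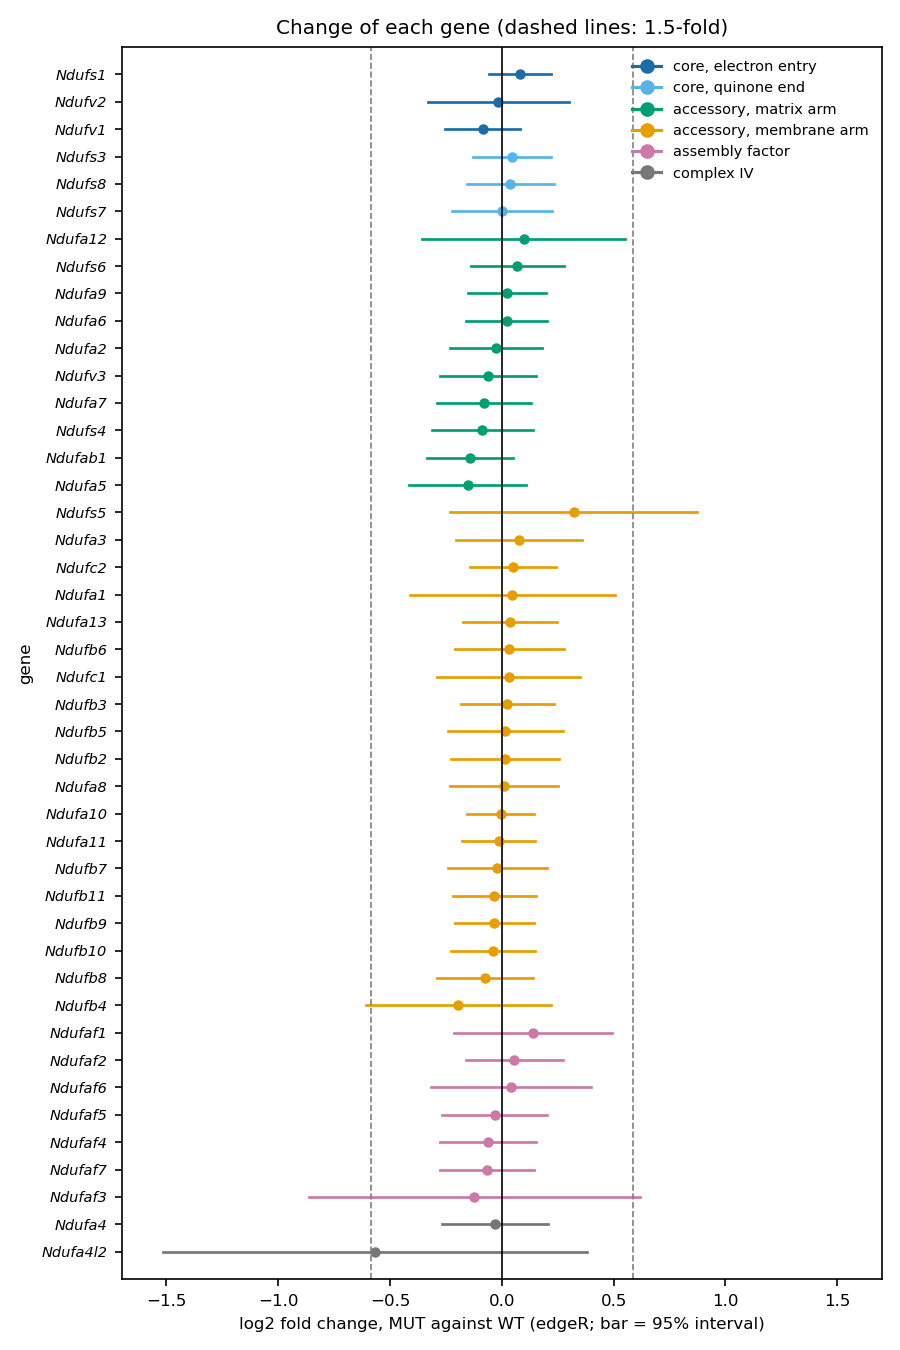
Log2 fold change of MUT against WT for 44 of the members (points) with its 95% interval from edgeR (bars), ordered by role and coloured by it, with dashed lines at 1.5-fold. All 44 intervals include 0, and the widest belong to *Ndufa4l2*, *Ndufaf3* and *Ndufs5*.

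The core subunits at the flavin end are *Ndufv1*, which holds the NADH and flavin site, and *Ndufv2* and *Ndufs1*, which hold iron-sulfur clusters. *Ndufs1* (GRCm38, chromosome 1, 63143596 to 63176833, minus strand) had 133, 137 and 141 CPM in WT and 148, 144.5 and 142 CPM in MUT. Every MUT library lay above every WT library, with a gap of under 2 CPM between the nearest of them. The log2 fold change was 0.08 ± 0.061 (SE, unadjusted p = 0.217 and adjusted p = 0.998 in edgeR), and an exact two-sided permutation test over the 20 assignments of the libraries gave p = 0.1, the smallest it can give with 3 against 3. *Ndufv1*, the member with the most counts, had 202, 201 and 220 CPM in WT and 207, 195.5 and 184 CPM in MUT, and the groups overlapped (log2 fold change −0.09 ± 0.074 SE). *Ndufv2* had 61.2, 78.3 and 93.2 CPM in WT against 71.8, 81.2 and 77.1 CPM in MUT. Its WT libraries spread over a 1.52-fold range that held all MUT values.

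The core subunits at the quinone end carry electrons onward to ubiquinone, and 3 of them are described here. *Ndufs7* lines the quinone site, *Ndufs3* is part of the stem that joins the arms, and *Ndufs8* holds a pair of iron-sulfur clusters. *Ndufs3* had 53.9, 55.7 and 62.3 CPM in WT and 61.0, 59.1 and 57.4 CPM in MUT (log2 fold change 0.045 ± 0.076 SE). *Ndufs7* had 66.0, 72.5 and 79.3 CPM in WT and 81.2, 70.5 and 66.3 CPM in MUT (log2 fold change 0.0013 ± 0.098 SE). *Ndufs8* had 90.3, 103 and 107 CPM in WT and 109, 104 and 95.1 CPM in MUT (log2 fold change 0.039 ± 0.085 SE). The groups overlapped for *Ndufs3*, *Ndufs7* and *Ndufs8*.

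Of the 10 accessory subunits of the matrix arm, 4 had log2 fold changes above 0 and 6 below, with a median of −0.04. *Ndufab1* is the mitochondrial acyl carrier protein, which serves in fatty acid and lipoic acid synthesis and sits in complex I in both arms. On chromosome 7 (122085403 to 122101886, minus strand) it had 25.9, 25.2 and 25.4 CPM in WT, from 593, 589 and 602 counts, and 24.0, 23.2 and 22.1 CPM in MUT, from 549, 536 and 518 counts. The groups did not overlap. The log2 fold change was −0.14 ± 0.084 (SE), and its 95% interval ran from −0.33 to 0.051. It had the lowest p of any member in edgeR (unadjusted p = 0.129, adjusted p = 0.998), and an exact permutation test gave p = 0.1, again the smallest possible. *Ndufa5*, a subunit of the matrix arm, had 35.2, 36.5 and 44.3 CPM in WT and 38.5, 34.3 and 31.5 CPM in MUT, and the groups overlapped (log2 fold change −0.15 ± 0.12 SE, and −0.04 without WT replicate 3).

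The other matrix arm members had overlapping groups. *Ndufa2* had 58.2, 62.0 and 70.1 CPM in WT and 58.6, 67.6 and 60.7 CPM in MUT. *Ndufs6*, which binds zinc, had 43.5, 42.3 and 51.0 CPM in WT and 50.1, 47.9 and 45.6 CPM in MUT. *Ndufa9*, which sits near the quinone site, had 127, 139 and 137 CPM in WT and 148, 135 and 127 CPM in MUT. *Ndufa12* spread most in this arm, from 8.52 CPM in WT replicate 1 to 14.96 CPM in WT replicate 3, while MUT libraries had 12.3, 11.4 and 12.6 CPM. *Ndufs4*, loss of which in mice gives a model of Leigh syndrome, had 52.3 to 66.4 CPM in WT and 52.1 to 57.0 CPM in MUT. *Ndufa6*, *Ndufa7* and *Ndufv3* had log2 fold changes between −0.08 and 0.022.

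Among the 19 accessory subunits of the membrane arm, 11 had log2 fold changes above 0 and 8 below, with a median of 0.014. *Ndufs5*, an accessory subunit on the intermembrane side, had the largest value above 0 of any member (0.32 ± 0.24 SE, unadjusted p = 0.218 and adjusted p = 0.998 in edgeR). It had 8.04, 16.0 and 15.8 CPM in WT and 18.6, 15.8 and 15.4 CPM in MUT, so that WT replicate 1 lay apart and the other WT libraries lay within the MUT range. Without WT replicate 1 the log2 fold change of *Ndufs5* was 0.053, and without each of the other libraries it was between 0.23 and 0.47. *Ndufb4* had 4.02, 5 and 5.83 CPM in WT and 4.15, 4.38 and 4.45 CPM in MUT, all MUT values being inside the WT range. *Ndufb9* had 126, 131 and 144.5 CPM in WT and 137, 132 and 122 CPM in MUT. *Ndufb2*, at the other end of the range of levels per length, had 16.6, 17.4 and 17.4 CPM in WT and 18.3, 15.7 and 17.9 CPM in MUT. Neither separated the groups.

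Further membrane arm members share exon bases with a neighbour and are given for that reason. *Ndufa13*, also known as GRIM-19, had 102, 105 and 121 CPM in WT and 120.2, 114 and 101 CPM in MUT. *Ndufb6* had 31.5, 34.1 and 40.2 CPM in WT and 37.8, 37.1 and 33.4 CPM in MUT. *Ndufb5* had 33.8, 39.1 and 46.1 CPM in WT and 38.9, 40.1 and 41.3 CPM in MUT. In all 3 the groups overlapped. *Ndufb8*, a subunit often used as a marker of assembled complex I, had 73.1, 78.8 and 90.3 CPM in WT and 83.1, 72.2 and 74.8 CPM in MUT. *Ndufa3* had 38.3, 42.4 and 47.5 CPM in WT and 40.2, 53.0 and 42.0 CPM in MUT, and *Ndufb11* had 56.3, 53.4 and 54.3 CPM in WT and 58.9, 51.1 and 50.2 CPM in MUT. These groups overlapped too. *Ndufa1*, an X-linked member required for assembly of the membrane arm, ran from 15.7 to 27.9 CPM in WT and from 19.3 to 24.2 CPM in MUT. The other 8 of this arm, *Ndufa8*, *Ndufa10*, *Ndufa11*, *Ndufb3*, *Ndufb7*, *Ndufb10*, *Ndufc1* and *Ndufc2*, had log2 fold changes between −0.04 and 0.049.

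Of the 7 assembly factors, 3 had log2 fold changes above 0 and 4 below, with a median of −0.03. *Ndufaf2*, which stands in for *Ndufa12* during assembly, had 26.9, 29.8 and 31.6 CPM in WT and 32.9, 29.5 and 29.4 CPM in MUT. *Ndufaf3* had 6.64, 7.99 and 14.8 CPM in WT and 6.21, 9.41 and 11.5 CPM in MUT, a 2.39-fold range over the 6 libraries with overlapping groups. *Ndufaf1*, an early assembly factor, ran from 15.9 to 24.1 CPM in WT and from 22.5 to 24.4 CPM in MUT. *Ndufaf4* to *Ndufaf7* had log2 fold changes between −0.07 and 0.042.

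*Ndufa4* and *Ndufa4l2* are paralogs that stood far apart in level. *Ndufa4* had 64.0, 77.2 and 84.99 CPM in WT and 74.3, 77.0 and 70.3 CPM in MUT, all MUT values inside the WT range. *Ndufa4l2* (chromosome 10, 127514967 to 127517154, plus strand), known as a gene induced by hypoxia in other tissues, had 1.005, 1.75 and 2.62 CPM in WT, from 23, 41 and 62 counts, and 0.83, 0.954 and 1.84 CPM in MUT, from 19, 22 and 43 counts. The groups overlapped, and the log2 fold change was −0.57 ± 0.42 (SE, unadjusted p = 0.207 and adjusted p = 0.998 in edgeR) with a 95% interval from −1.52 to 0.38. In the fit that blocked on replicate number *Ndufa4l2* had an unadjusted p of 0.048 (adjusted p = 0.75 in edgeR), where 6.6% of all tested genes had an unadjusted p under 0.05. The size of the difference depended on single libraries. The log2 fold change was −0.19 without WT replicate 3, −0.37 without MUT replicate 1, −0.86 without WT replicate 1 and −1.001 without MUT replicate 3. In the last of these fits the unadjusted p was 0.043 and the adjusted p 0.556 in edgeR, and 8.64% of all tested genes had an unadjusted p under 0.05. Per length, the *Ndufa4* level was between 25.7 and 70.9 times that of *Ndufa4l2*, at 50.5, 34.9 and 25.7 in WT and 70.9, 64.0 and 30.3 in MUT.

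Levels between members were compared only per length, as CPM per kb of all exons of the gene, averaged over the 6 libraries. The highest were *Ndufb9* at 128 CPM per kb, *Ndufa2* at 110 CPM per kb and *Ndufs8* at 105 CPM per kb. The lowest were *Ndufa4l2* at 1.37, *Ndufb2* at 3.06 and *Ndufab1* at 3.53 CPM per kb. Subunits of complex I, without *Ndufa4l2*, therefore spanned a range from 3.06 to 128 CPM per kb. The low values of *Ndufb2* and *Ndufab1* came with exon lengths of 5628 and 6883 bases, against a median of 1701 bases over the members. The median level was 38.8 CPM per kb for core subunits at the flavin end, 45.4 for those at the quinone end, 30.8 for the matrix arm, 40.9 for the membrane arm and 10.1 for assembly factors. Assembly factors ran from 4.85 to 17.8 CPM per kb. The median over subunits was 3.95 times that over assembly factors, and between 3.62 and 4.28 times in the single libraries.

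The length used moved single members and the order of the roles. When each gene was divided by the length of its principal transcript (APPRIS tag in GENCODE vM21, same build, a choice made after seeing the data), the subunit to assembly factor ratio was 3.90. The median was then 53.0 CPM per kb for the flavin end, 71.6 for the quinone end, 60.8 for the matrix arm, 59.2 for the membrane arm and 15.2 for assembly factors. The matrix arm, lowest of the subunit groups per kb of all exons, thus stood above the flavin end and the membrane arm. *Ndufa7* then stood highest at 214 CPM per kb, followed by *Ndufb9* at 188 and *Ndufa11* at 187. *Ndufb7* moved from rank 34 at 11.7 CPM per kb to rank 13 at 84.8 CPM per kb. *Ndufa4l2*, *Ndufb2* and *Ndufb4* were lowest, at 1.61, 3.94 and 4.78 CPM per kb. Where transcripts tied on their tags the longest was taken, and the length used was 4371 bases for *Ndufb2* and 3479 bases for *Ndufab1*.

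**Figure D2:**
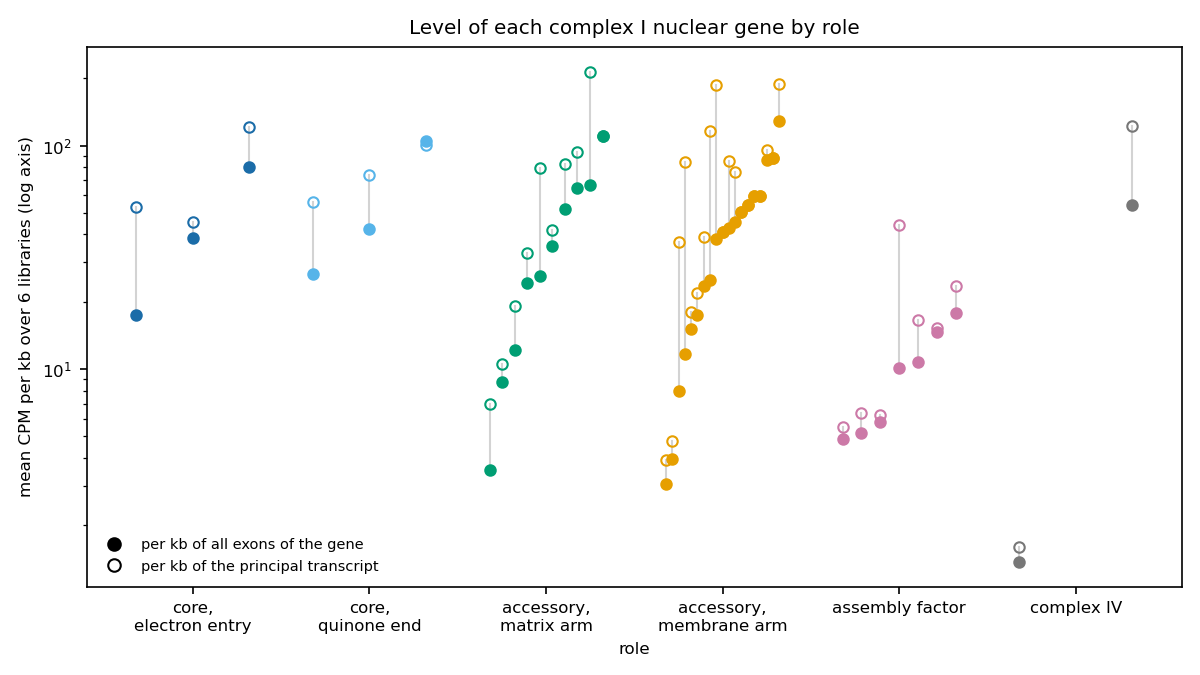
Mean level of 44 of the members over the 6 libraries in CPM per kb on a log axis, by role, with filled points per kb of all exons and open points per kb of the principal transcript, joined for each gene. Assembly factors lie between 4.85 and 17.8 CPM per kb of all exons, below most subunits, and *Ndufa4l2* is lowest at 1.37.

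Some levels are uncertain because the counting dropped multi-mapping fragments and disregarded strand. In windows of 50 bases along the principal transcripts, 26 members had no window in transcripts of another gene, and 19 had at least 1. Neighbours that share exons were left out by name, and names can differ between the annotations used (GENCODE vM17 and vM21). *Ndufb6* had 208 windows in *Smim27*, and 257 of its exon bases overlap *Toporsos*. *Ndufb9* had 153 windows in *Gm49356*, with 201 bases overlapping *RP24-354I13.6*, and *Ndufb8* had 85 in *Gm20538*, with 134 overlapping *RP23-83K12.3*. In these members, copies elsewhere were not told apart from exons shared with a neighbour. The share was 37.0% for *Ndufb4*, 35.8% for *Ndufs3*, 34.1% for *Ndufb6*, 31.1% for *Ndufs5*, 26.2% for *Ndufa12*, 23.4% for *Ndufb9*, and below 20% for the others. The sequence of *Ndufab1* matched *Ndufab1-ps* and others in 12.3% of its windows. Exons of 18 members overlapped those of another gene, over more than 20% of the exon bases for 3 of them. These were *Ndufaf2* (65.6%, by a gene with 1 count in all), *Ndufb6* (39.0%) and *Ndufa13* (29.98%, by *Tssk6*). The same counting was applied to every library.

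The members also varied together between mice of the WT group. WT replicate 3 was the highest of the 6 libraries in 32 of 45 members, where it was the highest for 26.7% of all tested genes, and the lowest in 0. WT replicate 1 was the lowest in 26 members, against 18.9% of all tested genes. The mean over members of the deviation from each gene's mean log2 CPM was −0.16, −0.01 and 0.18 in the WT libraries (replicates 1, 2 and 3). It was 0.027, −0.0002 and −0.03 in the MUT libraries. The summed CPM of WT replicate 3 was 1.18 times that of WT replicate 1, and the highest MUT library was 1.09 times the lowest.

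**Figure D3:**
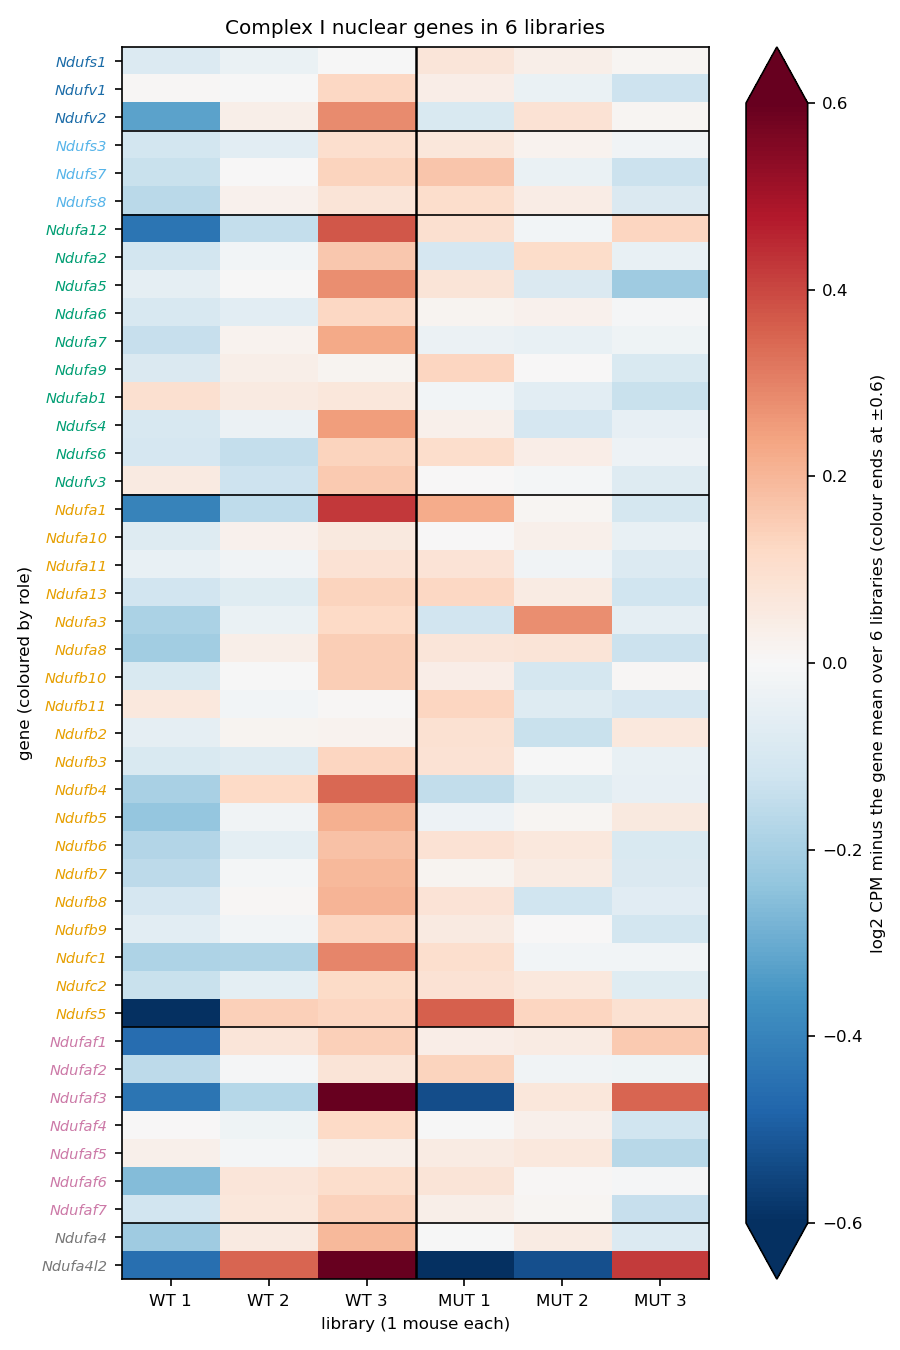
Deviation of log2 CPM from the gene's mean over the 6 libraries (colour, ending at ±0.6) for 44 of the members, grouped by role, with WT libraries left and MUT libraries right of the vertical line. WT replicate 1 is low and WT replicate 3 high for most members, with mean deviations of −0.16 and 0.18, and the MUT libraries lie between −0.03 and 0.027.

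With all libraries, the spread within WT exceeded the spread within MUT for most members. The median SD of log2 CPM was 0.137 in WT and 0.0848 in MUT, and 34 of 45 members had the larger SD in WT. Over the 10583 genes above 10 CPM the medians were 0.116 and 0.0828, and 61.1% had the larger SD in WT. The count depended on the WT libraries kept, and no MUT library was left out. Without WT replicate 3 the median SD of the members in WT was 0.077, and 18 of 45 members and 36.9% of the genes above 10 CPM had the larger SD in WT. Without WT replicate 1 it was 0.115, with 26 of 45 members and 55.7% of these genes. Without WT replicate 2 it was 0.181, with 39 of 45 members and 61.5%. The SD in WT then came from fewer libraries than that in MUT, so these counts do not compare like with like. The ratio of the highest to the lowest library had a median of 1.22 over members and 1.23 over genes above 10 CPM. It was smallest for *Ndufa10* (1.10) and *Ndufs1* (1.11) and exceeded 1.5 in 7 members, *Ndufv2*, *Ndufaf1*, *Ndufa12*, *Ndufa1*, *Ndufs5*, *Ndufaf3* and *Ndufa4l2*. *Ndufa4l2* had the widest, 3.15.

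Because of this structure, leaving out a WT library moved the whole set in opposite directions. Without WT replicate 3 the median log2 fold change of the members was 0.077 and 36 of 45 lay above 0. Without WT replicate 1 it was −0.07 and 41 of 45 lay below 0. Leaving out WT replicate 2 or any MUT library gave medians between −0.03 and 0.025. Without WT replicate 3, *Ndufa12* and *Ndufa1* had unadjusted p values of 0.041 and 0.048 (log2 fold changes of 0.35 and 0.32, adjusted p = 0.999 for both in edgeR), and 3.63% of all tested genes had an unadjusted p under 0.05 in that fit. No member was called in any of these fits.

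Other measured quantities moved with the same libraries. With a correction for a trend over exon length in each library, the mean deviation was −0.12 in WT replicate 1 and 0.080 in WT replicate 3, against −0.16 and 0.18 without it. WT replicate 3 was then the highest library in 17 members and MUT replicate 1 in 18, and WT replicate 1 was the lowest in 17 and MUT replicate 3 in 18. All 7 markers of undifferentiated spermatogonia were measured, with 0 of 7 at 0, and they summed to 1275, 1161 and 862 CPM in WT and 1212, 944 and 993.5 CPM in MUT. The 6 spermatocyte markers summed to 407, 430 and 558 CPM in WT and 440, 442 and 468 CPM in MUT. WT replicate 3 therefore had the lowest undifferentiated sum and the highest spermatocyte sum, and it also had the highest spermatid and macrophage sums given above. By the mean deviation over the 7 undifferentiated markers, which weights genes equally, MUT replicate 2 was lowest (−0.26) and WT replicate 3 next (−0.15). The part of length and of cell makeup in the members' pattern was not tested.

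Sums over the other nuclear complexes of the chain were also lower in WT replicate 1 than in WT replicate 3. The 9 genes of complex III summed to 797, 866 and 950 CPM in WT and 921, 895 and 833 CPM in MUT. The 10 genes of complex IV summed to 1230, 1299 and 1445 CPM in WT and 1393, 1323 and 1199 CPM in MUT, and the 15 genes of complex V, the ATP synthase, to 2419, 2574 and 2730 CPM in WT and 2730, 2682 and 2422 CPM in MUT. WT replicate 3 was 1.19, 1.17 and 1.13 times WT replicate 1 in these sums. The 4 genes of complex II ran from 592 to 630 CPM in WT and from 584 to 619 CPM in MUT. No gene of complexes II to V was called in edgeR, and none had an unadjusted p under 0.05.

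**Figure D4:**
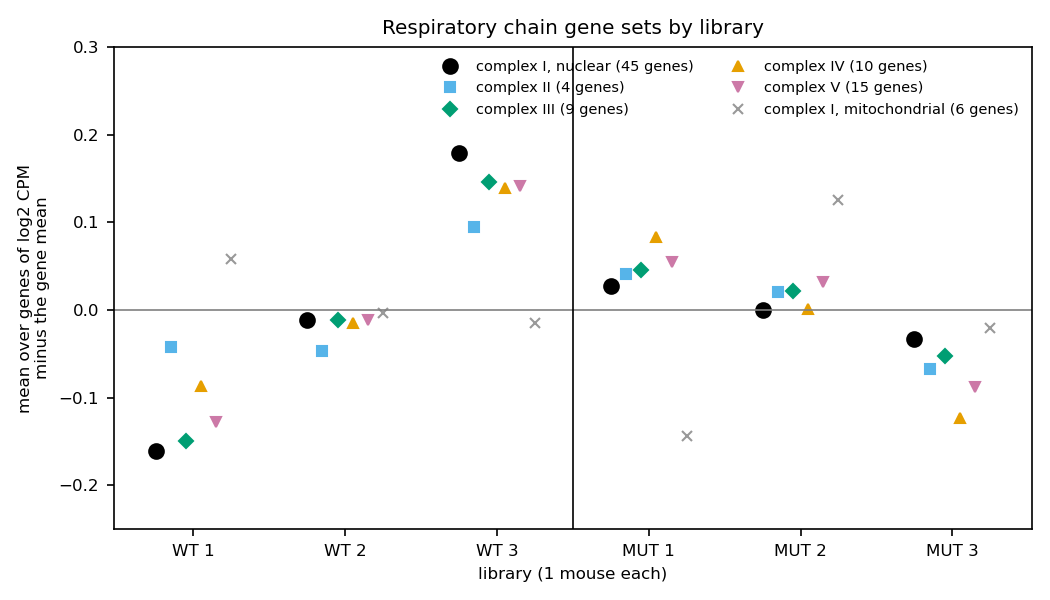
Mean deviation of log2 CPM from the average of each gene over the 6 libraries, by library, for the 45 members, complexes II to V and the 6 tested mitochondrially encoded complex I genes. The nuclear sets of complexes I, III and V are lowest in WT replicate 1 and those of complexes I to V highest in WT replicate 3. The mitochondrially encoded set is highest in MUT replicate 2 and lowest in MUT replicate 1, with equal weight on *mt-Nd3*, which had 0.676 to 1.43 CPM.

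The partner subunits encoded by mitochondrial DNA were summed in the same way. Of 7 such complex I genes 6 were tested, and *mt-Nd4l* was at 0 in every library. They summed to 7997, 7802 and 8429 CPM in WT and 7609, 8170 and 8259 CPM in MUT, with a median log2 fold change of −0.02, 1 above 0 and 5 below, and 0 called. The sum was highest in WT replicate 3, but the mean deviation was highest in MUT replicate 2 (0.13). That mean weights genes equally and includes *mt-Nd3*, which had 1.22, 1.07 and 0.676 CPM in WT and 0.743, 1.43 and 0.727 CPM in MUT. The lowest value of any other tested gene of this set was 488 CPM (*mt-Nd6* in MUT replicate 1). A mean without *mt-Nd3* was not taken. Other mitochondrially encoded genes were near 0 too. *mt-Co2*, *mt-Co3*, *mt-Atp6* and *mt-Atp8* had at most 0.306 CPM, whereas *mt-Co1* had 9210 to 10140 CPM. Multi-mapping and ambiguous fragments were left out of the counts, so values near 0 here do not show that the RNA was absent. The part of such lost fragments was not tested. A further list held 11 assembly factors of complex I with other names, of which 8 were matched and tested. They had a median log2 fold change of 0.11, with 5 above 0 and 3 below, and 0 called. The 3 below 0 were *Timmdc1* (−0.11), *Tmem70* (−0.08) and *Nubpl* (−0.01). *Ecsit*, *Foxred1* and *Tmem186* had all MUT values above all WT values, which held for 4.69% of all tested genes. *Ecsit*, which acts with *Ndufaf1*, had 48.4, 55.3 and 54.5 CPM in WT and 59.3, 60.0 and 58.2 CPM in MUT (log2 fold change 0.17 ± 0.074 SE, unadjusted p = 0.052 and adjusted p = 0.998 in edgeR). *Foxred1* had 56.6, 56.2 and 57.0 CPM in WT and 58.9, 60.3 and 61.9 CPM in MUT, a log2 fold change of 0.09, and *Tmem186* had 32.8, 35.9 and 33.9 CPM in WT and 38.0, 36.4 and 37.9 CPM in MUT, a log2 fold change of 0.13.

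Regulators of nuclear genes for mitochondria were read the same way. Of 11 tested, 6 had log2 fold changes above 0 and 5 below, with a median of 0.019 and 0 called. *Yy1*, whose motif core stands at the start codons printed above, had a log2 fold change of −0.08, *Nrf1* of 0.019 and *Gabpa* of 0.039, and the 7 members with the motif had log2 fold changes between −0.09 and 0.078. *Esrra*, a nuclear receptor that acts with PGC-1 coactivators, had 18.6, 17.7 and 17.7 CPM in WT and 20.2, 20.1 and 19.1 CPM in MUT, with no overlap of the groups and a log2 fold change of 0.14 (unadjusted p = 0.176 and adjusted p = 0.998 in edgeR). *Pprc1*, a coactivator of this family, was lowest in WT replicate 3, where the members were highest, at 555, 539 and 399 CPM in WT and 556, 527 and 507 CPM in MUT.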

How the data were processed

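Deposited values were raw counts of fragments per gene name and library. The authors sorted cells, made TruSeq Stranded mRNA libraries, sequenced paired ends, and used FastQC, STAR (versions not given in the sources used here) and featureCounts 1.6.2 with GENCODE vM17 on GRCm38.p6, with tdTomato added. Strand was not used, multi-mapping and ambiguous fragments were left out, and nothing was normalised or pooled.

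Here the 6 tables were joined by gene name. In R 4.3.3, edgeR 4.0.16 applied TMM scaling, filterByExpr (19656 genes kept) and a quasi-likelihood fit on genotype alone, with Benjamini-Hochberg adjustment over all tested genes at an FDR of 0.1. Standard errors came from the log2 fold change and its F statistic. Single members also had exact two-sided permutation tests. DESeq2 1.42.0 (the study's tool), limma 3.58.1 (voom), other scalings and filters, an exon-length correction, the replicate number as a block and each library left out in turn were alternatives. Log2 CPM used a prior count of 2 for the correlations between libraries, and none for the members' SDs and uncorrected mean deviations. The exon-length correction added 0.5 CPM. The scripts were tested on simulated counts.

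The labels give the numbers 1 to 3 in both groups. Same-numbered libraries deviated together over 10583 genes above 10 CPM (r = 0.304, 0.156 and 0.395), so the numbers were taken to pair the libraries. The main fit, its intervals and the permutation tests still leave the pairing out. Blocked values are given only for the calls, the count of intervals within 1.5-fold, the spermatid markers and *Ndufa4l2*. WT replicate 2 and MUT replicate 1 deviated together too (r = 0.326), and nothing names the litters. The replicates were separate mice.

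Members and lists were chosen with earlier results of these data known. Members with values by library are those not overlapping between groups, the 6 with the lowest p, the 7 core subunits, the 3 highest and 3 lowest per length, paralogs, and members sharing exons with another gene. The result for 1 member is not reported here individually, and it is left out of the figures that show single genes. Ranges of *Ndufa12*, *Ndufa1*, *Ndufaf1* and *Ndufs4* and the windows around AAGATGGC were added after their values were seen. Total counts of 22729292 to 23550433 limit precision through counting error only, since duplicates were not separable.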

Additional observations from a re-analysis of the deposited data

How the results depend on the processing

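No member was called at an FDR of 0.1 in any of the alternatives. The members' median log2 fold change stayed within the spread between libraries in all of them, though leaving out WT replicate 1 or WT replicate 3 turned most members to opposite sides of 0. Over the whole table, the 2 genes called became 9 in DESeq2, 17 in DESeq2 without its Cook filter, 4 in limma voom, 5 with no filter, 15 with the exon-length correction and replicate block together, 1 at an FDR of 0.05, and 0 when every sample had to hold 10 counts or more (479 genes with an unadjusted p under 0.05). With the replicate block edgeR called 13 genes and DESeq2 called 55, and 1 member (*Ndufa4l2*) had an unadjusted p under 0.05 in edgeR, against 6.6% of all tested genes. The block changed no call among the members. Leaving out each library in turn gave 0 genes called (without MUT replicate 2, 292 genes with an unadjusted p under 0.05) to 6 genes called (without MUT replicate 3), 0 to 2 members with an unadjusted p under 0.05, and 3 to 10 members not overlapping between groups. That last count was 2 with all libraries (7.69% of all tested genes did not overlap), 7 without WT replicate 1 (17%), 10 without WT replicate 3 (19%), 5 without MUT replicate 1 (14.4%), 5 without MUT replicate 3 (26.1%), and 3 without WT replicate 2 (16.5%) or MUT replicate 2 (12.4%). The cause of these changes was not tested. *Ndufa4l2* had the fewest counts of any member, 19 to 62 a library, followed by *Ndufb4* with 92 to 138.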
